A study of Mus musculus with 6 samples.

Results

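The amino acid transporters of the cell membrane examined here are 10 genes, Slc38a1, Slc38a2, Slc38a5, Slc7a1, Slc7a3, Slc7a5, Slc7a11, Slc3a2, Slc1a4 and Slc1a5. Their members are the probes of the array table that carry one of these symbols. The rule gave 21 of 45281 probes, for 9 of the 10 genes, and Slc7a5 was not analysed here. The cells were mouse induced pluripotent stem (iPS) cells without Nac1, the gene of a BTB-domain protein of the nucleus, and human NAC1 (hNAC1) was returned to them. All cells carry the null background, and the 2 lines, clone 7 and clone 5, gave 1 array each per time point of the rescue, at days 0, 2 and 5. The 2 arrays of a day are therefore different clones, and the p-values below measure the disagreement between the clones in their changes, with no repeat culture of a clone. No cells without hNAC1 were sampled over these days, so hNAC1 and time in culture cannot be told apart.

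Amino acids cross the cell membrane through families of carrier proteins that differ in their substrates and in what they exchange or co-transport. Slc38a1 and Slc38a2 carry small neutral amino acids such as alanine and glutamine inward together with sodium (system A), and Slc38a5 carries glutamine, asparagine, histidine and serine in exchange for protons (system N). Slc1a4 and Slc1a5 are sodium-dependent exchangers of alanine, serine, cysteine and, for Slc1a5, glutamine. Slc7a1 and Slc7a3 carry the cationic amino acids arginine and lysine. Slc7a5 and Slc7a11 are light chains that pair with the heavy chain Slc3a2, and they bring in large neutral amino acids and cystine, in that order. Several of these genes are known targets of the transcription factor ATF4, which is made when amino acids run short. Mouse pluripotent cells are known to depend on glutamine, threonine and other amino acids from the medium.

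Of the 6 arrays, each detected 16739 to 18150 of the probes against its negative controls (detection p under 0.05), which is 37% to 40.1%. All 6 arrays lay on 1 chip. The 8 pluripotency markers with a probe, among them Pou5f1 and Nanog, were detected on all 6 arrays. Of 11 fibroblast markers, 3 to 5 were detected on an array, and Col1a1, Col1a2, Col3a1, Postn, Lum and S100a4 were detected on none. The uncorrected signals summed over the 11 fibroblast markers, with the background of each included, were 2555 in clone 7 and 3344 in clone 5 on day 0. They were 1430 and 2405 on day 2 and 2535 and 2413 on day 5, for clone 7 and clone 5 in that order.

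Detection divided the transporter probes. Of the 21 probes, 7, of 5 genes, were detected on all 6 arrays, namely 1 each of Slc38a5, Slc7a3 and Slc1a4 and 2 each of Slc38a2 and Slc1a5. A probe was tested if both arrays of some day detected it, and 11 probes of 7 genes met this among 17471 in all. Slc38a1 entered through day 0 alone, as did Slc3a2, so a lower value on a later day is in part built into their selection. The 10 probes that were not tested are all 5 of Slc7a11, both of Slc7a1, 2 of Slc1a5 and 1 of Slc38a2. No array detected Slc7a11, the cystine and glutamate exchanger, whose 5 probes had signals of 83.8 to 99.6. No array detected Slc7a1 either, whose 2 probes had signals of 89.9 to 97.6. The median signal of an array was 93.38 to 95.85, so these values lie near its background and only bound the transcripts from above.

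**Figure D1:**
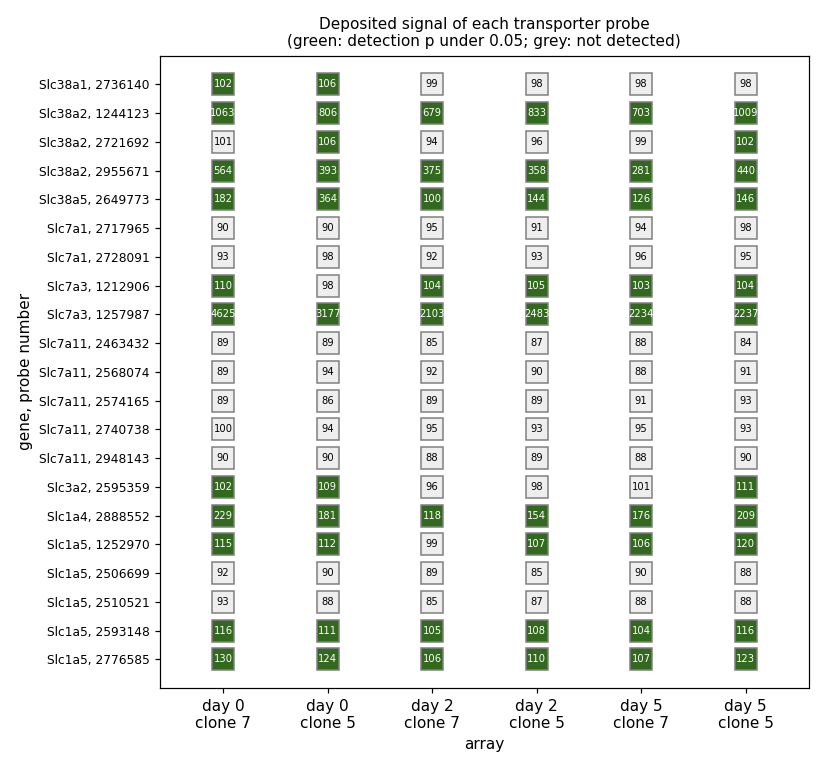
Average bead signals, before any correction, of all 21 probes (rows, grouped by gene) on the 6 arrays (columns, by day and clone), printed in the squares. Green squares mark probes detected at p under 0.05 and grey squares those that were not. Slc7a11 and Slc7a1 are grey throughout, and 7 probes are green in every column.

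Slc38a5 was the member with the largest differences from day 0. Its log2 value (background corrected and quantile normalised) was 6.79 in clone 7 and 8.22 in clone 5 on day 0. On day 2 it was 4.68 in clone 7 and 6.09 in clone 5, and on day 5 it was 5.70 in clone 7 and 5.99 in clone 5. Both day 0 arrays lay above all 4 later arrays. Slc38a5 fell by day 5, with a log2 change of -1.66 ± 0.29 (standard error, SE) or 3.15-fold (limma, adjusted p = 0.0292, Benjamini-Hochberg over 17471 probes). The change was -1.08 in clone 7 and -2.23 in clone 5. On day 2 the log2 change against day 0 was -2.12 ± 0.29, or 4.35-fold, with -2.11 in clone 7 and -2.13 in clone 5, and it did not pass (limma, adjusted p = 0.142). The larger and more even difference thus had the higher adjusted p, since the adjustment also uses the other probes of its comparison, in which 0 of 17471 passed. The day 2 value of clone 7 was barely detected (detection p of 0.0459), at 4.68 beside a lowest detected value of 4.66 on that array. The evenness of the clones therefore depends on the scale. On the deposited series values, clone 7 went from 6.55 on day 0 to 3.21 on day 2. Clone 5 went from 8.14 to 5.70, a smaller fall than that of clone 7. Day 5 against day 2 differed by 0.46 ± 0.29 (limma, adjusted p = 0.468), at 1.02 in clone 7 and -0.10 in clone 5.

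The Slc38a5 call on day 5 depended on the model and on the treatment of the background. Without the clone as a block the adjusted p was 0.183, and without the clone 5 array of day 0 the change was -1.36 (limma, adjusted p = 0.0512). With a day 0 array left out, that day is 1 array, which is assumed to vary like the days that keep both arrays, here and for the other members. Without a background correction it was -0.99 (limma, adjusted p = 0.0999). All 15 alternatives gave a change below 0, between -2.22 and -0.99, and 9 of them passed. The alternatives are not independent. Those that altered only the block, filter, probe choice, shrinkage or threshold could not move the estimate. Leaving out either day 2 array could not move it either, and both ways give the same fit of day 5 against day 0. The threshold of 0.1 rereads the main fit, so its pass was fixed in advance.

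The promoter of Slc38a5, the member that passed, is shown with that of Slc7a11, a textbook ATF4 target that no array detected here. The windows are the 250 bases before the annotated start, from RefSeq (GRCm38.p6), 5′ to 3′ on the strand of the gene. They lie at chrX:8271131-8271380 on the plus strand and at chr3:50443614-50443863 on the minus strand.
Slc38a5: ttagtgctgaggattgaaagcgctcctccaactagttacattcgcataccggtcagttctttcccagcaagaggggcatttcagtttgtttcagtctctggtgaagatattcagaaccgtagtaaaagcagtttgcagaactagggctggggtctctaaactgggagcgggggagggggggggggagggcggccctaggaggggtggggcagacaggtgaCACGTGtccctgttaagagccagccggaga
Slc7a11: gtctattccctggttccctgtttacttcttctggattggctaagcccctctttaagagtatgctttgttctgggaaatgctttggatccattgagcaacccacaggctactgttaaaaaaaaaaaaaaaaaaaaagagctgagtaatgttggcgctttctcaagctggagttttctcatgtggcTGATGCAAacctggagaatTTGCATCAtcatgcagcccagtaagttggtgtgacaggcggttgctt
Capitals mark matches, on either strand, to the composite motif TGATGNAA, which ATF4 and C/EBP proteins are known to bind together, and to CACGTG, an E-box. Windows were given for 7 promoters of 6 members. Slc7a11 alone among these held TGATGNAA, at 66 and, on the other strand, 47 bases before the start. The motif stood in 1 of the 7 windows (14.3%) and in 3.45% of 32851 windows of all genes. CACGTG, which was picked after this sequence had been read, stood in the Slc38a5 window alone, 30 bases before the start, and in 6.02% of all windows. A match is a description of the letters and not a bound site.

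The system A carriers were measured by 3 tested probes. The 2 tested probes of Slc38a2 read in opposite directions in the 2 clones by day 5. Slc38a2 probe ILMN_2955671 had log2 values of 8.97 and 8.36 on day 0, 8.21 and 8.09 on day 2, and 7.77 and 8.43 on day 5, in clone 7 and clone 5 in that order. Its day 5 change against day 0 was -0.57 ± 0.29 (limma, adjusted p = 0.318), at -1.20 in clone 7 and 0.07 in clone 5. Slc38a2 probe ILMN_1244123 gave 9.96 and 9.52 on day 0, 9.22 and 9.53 on day 2, and 9.36 and 9.81 on day 5, in the same order. Its day 5 change was -0.15 ± 0.24 (limma, adjusted p = 0.775), at -0.60 in clone 7 and 0.29 in clone 5. On both probes clone 7 was the higher clone on day 0 and the lower one on day 5. The untested Slc38a2 probe, ILMN_2721692, was detected on 2 arrays, both of clone 5, and differed from day 0 by -0.20 on day 5 and -0.36 on day 2. Slc38a1 had log2 values of 4.75 and 4.97 on day 0, 4.65 and 4.58 on day 2 and 4.53 and 4.50 on day 5, with the later 4 arrays below detection. Against the lowest detected values, the day 0 mean gave a bound of at least 1.17-fold lower on day 5 and at least 1.16-fold on day 2. Neither change passed (limma, adjusted p = 0.321 and 0.584). The bounds leave out the spread of the day 0 values, and a later fall is in part built into the selection of Slc38a1.

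Of the exchangers, Slc1a4 was lowest on day 2. It had log2 values of 7.30 in clone 7 and 6.79 in clone 5 on day 0, 5.44 and 6.28 on day 2, and 6.73 and 6.95 on day 5. Both day 2 arrays lay below the other 4. The day 2 change against day 0 was -1.19 ± 0.30, or 2.27-fold (limma, adjusted p = 0.228), and that of day 5 against day 2 was 0.98 ± 0.30, or 1.97-fold (limma, adjusted p = 0.176). Day 5 against day 0 differed by -0.21 ± 0.30 (limma, adjusted p = 0.745). Neither difference of Slc1a4 passed with all arrays. Leaving out either day 0 array gave the same fit of day 5 against day 2, with the estimate of 0.98 unmoved. With 1 array left out, the day 2 change of Slc1a4 lay between -1.71, against the clone 7 array of day 0 alone, and -0.66.

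Slc1a5 was measured by 3 tested probes, all of which were lower on day 2 than on day 0 in both clones. Probe ILMN_2776585 had log2 values of 5.79 in clone 7 and 5.67 in clone 5 on day 0, 4.99 and 5.16 on day 2, and 4.98 and 5.40 on day 5. Its day 0 arrays lay above the other 4, with changes against day 0 of -0.54 ± 0.19 on day 5 and -0.65 ± 0.19 on day 2 (limma, adjusted p = 0.178 and 0.263). The other two Slc1a5 probes had smaller day 5 changes of -0.25 (ILMN_2593148) and -0.13 (ILMN_1252970), with adjusted p of 0.512 and 0.749 in limma. Their day 2 changes were -0.28 and -0.45 (limma, adjusted p = 0.551 and 0.373). The untested Slc1a5 probes were detected on no array.

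Slc7a3, a cationic carrier, had signals on probe ILMN_1257987 of 4625 in clone 7 and 3177 in clone 5 on day 0. They were 2103 and 2483 on day 2 and 2234 and 2237 on day 5. On the log2 scale these are 12.17 and 11.51 on day 0, 11 and 11.24 on day 2, and 11.09 and 11.05 on day 5, and the day 0 arrays lay above all later ones. The changes against day 0 were -0.77 ± 0.24 on day 5, or 1.71-fold, and -0.72 ± 0.24 on day 2, and neither passed (limma, adjusted p = 0.125 and 0.291). With 1 array left out, the day 5 change lay between -1.15, against the clone 7 array of day 0 alone, and -0.4. Its size thus depended on the arrays used. A second and dim Slc7a3 probe, ILMN_1212906, differed from day 0 by -0.08 on day 5 and 0.09 on day 2 (limma, adjusted p = 0.866 and 0.886). The probes of Slc7a3 thus disagree, and the dim one lay within 4.54 to 5.13 on all arrays.

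Slc3a2, the heavy chain that carries the Slc7a light chains to the membrane, was close to its detection limit. Its log2 values were 4.74 in clone 7 and 5.14 in clone 5 on day 0, 4.52 and 4.60 on day 2, and 4.67 and 5.02 on day 5. It was detected on both day 0 arrays, on none of day 2 and on clone 5 of day 5. Day 5 differed from day 0 by -0.09 ± 0.18 (limma, adjusted p = 0.817). Against the lowest detected values, the day 0 mean gave a bound of at least 1.23-fold lower on day 2, and the change did not pass (limma, adjusted p = 0.408). The bound leaves out the spread of the day 0 values, and a later fall is in part built into the selection of Slc3a2.

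**Figure D2:**
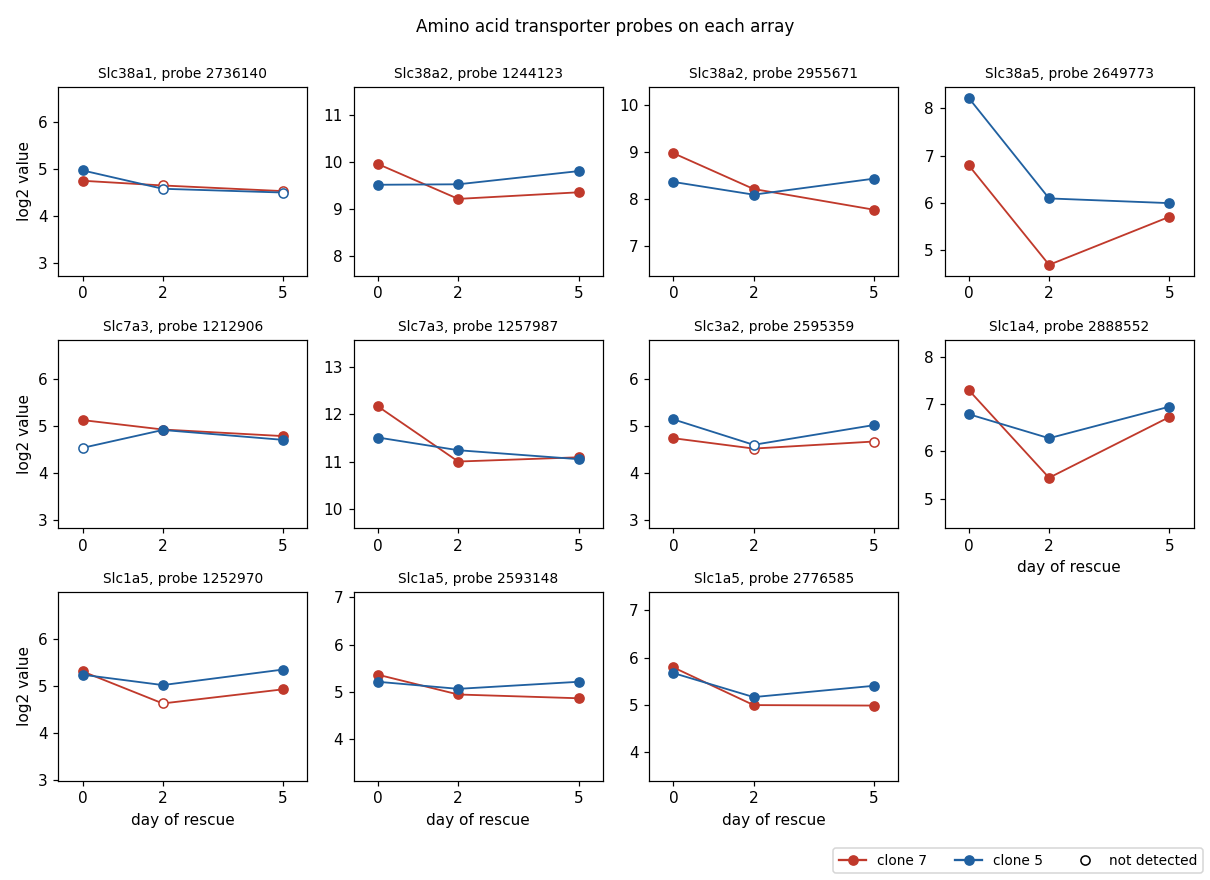
Log2 values of the 11 tested transporter probes (1 panel each) on days 0, 2 and 5 for clone 7 and clone 5, with filled points where the probe was detected and open points where it was not. Panels start at different levels but cover the same span, and levels of different probes are not comparable. Slc38a5 and Slc7a3 probe ILMN_1257987 lie highest on day 0 in both clones, and Slc1a4 lies lowest on day 2.

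Counted over the tested members, 1 of 11 probes passed on day 5 against day 0, and it was lower. Of all 17471 probes, 3.66% passed in this comparison, 2.05% as higher and 1.60% as lower, so 1 call among 11 is a small count to read against this background. All 11 members lay below 0, against 50.7% of all tested probes, with a median log2 change of -0.25 and a range of -1.66 to -0.08. Slc38a1 and Slc3a2 were tested through day 0 alone, so for them a later fall is in part built into these counts. With 1 array left out, the median lay between -0.56 (without the clone 5 array of day 0) and -0.07 (without the clone 7 array of day 5). For all tested probes the median was -0.01. On day 2 against day 0, 0 of 11 passed in limma (percent of all probes passing, 0), with 5 members at an unadjusted p under 0.05, as were 2339 of all probes. Of the 11 members, 10 lay below 0 on day 2, against 48.2% of all tested probes, with a median of -0.45, which was -0.77 without the clone 5 array of day 0. On day 5 against day 2, 0 of 11 passed in limma, 1 had an unadjusted p under 0.05, and the median was 0.12. Of all probes, 0.693% passed there. The 7 probes detected on all 6 arrays lay below 0 in both comparisons with day 0, at medians of -0.54 on day 5 and -0.65 on day 2. Probes of a gene share its transcript, and both comparisons share the day 0 arrays.

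The clones differed in the direction and size of their changes, and these differences were not tested. On day 2, 9 of 11 members were lower than on day 0 in both clones and 2 went opposite ways, whereas 29.1% of all tested probes were lower in both. On day 5, 6 of 11 were lower in both clones and 5 went opposite ways, beside 30.2% of all tested probes lower in both. The median of the 11 changes was -0.58 in clone 7 and 0 in clone 5 on day 5, and -0.74 in clone 7 and -0.27 in clone 5 on day 2. Slc38a1 and Slc3a2, which were tested through day 0 alone, are among the members lower in both clones on day 2 and on day 5. These counts and medians are descriptions, since the members were not drawn independently. The 5 tested probes of fibroblast markers are of 3 genes, Sparc, Fstl1 and Thy1, and most are of Sparc. These 5 probes also lay below 0 on day 2, at a median of -1.23. On day 5 against day 2 all 5 lay above 0, at a median of 0.81, with 0 passing in limma in either comparison. Of 7 primitive endoderm markers, 0 in clone 7 and 2 in clone 5 were detected on day 0, 0 and 3 on day 2, and 2 and 5 on day 5, with Foxa2 detected on none. Their summed signals were 664.5 to 678.7 on day 0, 655.2 to 673.5 on day 2 and 721.1 to 727.9 on day 5. These sums are of uncorrected signals, and the median signal of an array was 93.38 to 95.85 per probe. They are therefore mostly background. Gata6, a transcription factor of that lineage, is the tested one of these markers. It entered the test through day 5 alone, the day on which it is high, so a rise is in part built into its selection. No day 0 array detected Gata6, and day 5 was at least 2.07-fold higher (limma, adjusted p = 0.0165). Day 5 was higher than day 2 by 1.19 (limma, adjusted p = 0.0442). The part of either cell type in the transporter values was not tested. In bulk RNA, fewer cells of a type and less RNA per cell cannot be told apart.

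**Figure D3:**
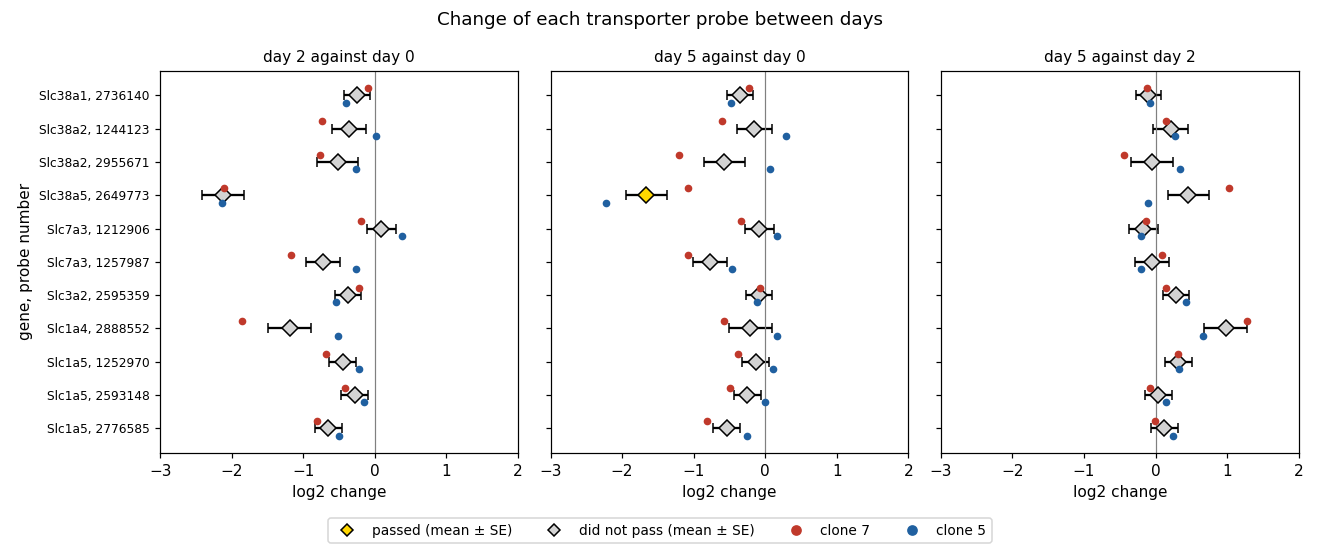
Log2 change of the 11 tested probes in the 3 day comparisons, with diamonds for the mean, bars for its SE in the limma fit, and dots for the change of clone 7 and of clone 5. All means lie below 0 on day 5 against day 0, and Slc38a5 at -1.66 is the one that passed.

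Between the clones, 0 of 11 members passed in limma, as did 0% of all probes, and 1 member had an unadjusted p under 0.05. Slc38a5 differed by -1.05 ± 0.24, or 2.07-fold, for clone 7 against clone 5 (limma, adjusted p = 0.202). Its mean log2 value was 5.72 ± 1.05 in clone 7 and 6.77 ± 1.26 in clone 5 (SD over 3 days). Clone 7 was lower on each day, by the smallest margin on day 5. Of the 11 members, 8 were lower in clone 7, with a median of -0.11.

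Among 1093 probes of other genes that were detected on all 6 arrays and varied by an SD of at least 0.5, 6 had profiles most like that of Slc38a5. They are Fkbp10 (Pearson r = 0.965 over 6 arrays), Slc11a1 (0.965), Spink2 (0.96), Eprs (0.96), Psme1 (0.955) and Cotl1 (0.951). These coefficients are descriptions, because all probes share the same 6 arrays. Fkbp10 encodes a chaperone of collagen in the endoplasmic reticulum, and Slc11a1 a metal transporter of phagosomes. They were picked for following Slc38a5, which was highest on day 0, so their day 5 changes against day 0 restate that choice and are given with no test. The log2 changes were -1.25 for Fkbp10, -1.11 for Spink2, a protease inhibitor, -0.93 for Psme1, a proteasome activator subunit, and -0.91 for Slc11a1. They were -0.63 for Eprs, a tRNA synthetase, and -0.61 for Cotl1, an actin-binding protein.

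A list of 26 other amino acid transporters of the cell membrane gave 17 tested probes of 13 genes. On day 5 against day 0, 7 of the 17 passed (41.2%, beside the 3.66% of all probes), 4 higher and 3 lower, and the list's median was 0.14. Slc1a1, a carrier of glutamate, aspartate and cysteine, rose on both tested probes. Both entered the test through day 5 alone, the day on which they are high. Slc1a1 probe ILMN_1225873 was below detection on days 0 and 2, and had log2 values of 6.39 in clone 7 and 6.23 in clone 5 on day 5. It was at least 3.07-fold higher on day 5 than on day 0 (limma, adjusted p = 0.00645), and the other Slc1a1 probe was at least 2.24-fold higher (limma, adjusted p = 0.0292). Slc43a1, a facilitative carrier of large neutral amino acids, rose by 1.51 ± 0.18 on ILMN_1229667, with values of 5.71 and 5.13 on day 0, 6.02 and 5.83 on day 2, and 7.03 and 6.83 on day 5 in clone 7 and clone 5 (limma, adjusted p = 0.0107). Its second probe was at least 1.95-fold higher (limma, adjusted p = 0.0195). That probe was undetected on day 0 and entered the test through days 2 and 5, so a rise is in part built into its selection. The 4 higher calls of the list include this probe and both Slc1a1 probes.

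In the other direction, Slc7a7, a light chain that pairs with Slc3a2 and exchanges cationic for neutral amino acids, fell on both tested probes by day 5. On Slc7a7 probe ILMN_1240318 the log2 values were 7.48 in clone 7 and 8.66 in clone 5 on day 0, 6.43 and 6.91 on day 2, and 6.02 and 5.78 on day 5. Its change against day 0 was -2.17 ± 0.31 and that of the other probe -2 ± 0.28 (limma, adjusted p = 0.0179 and 0.0168). Slc1a3, a glutamate carrier, fell by 0.87 ± 0.18 (limma, adjusted p = 0.0452), a call lost without the clone block (limma, adjusted p = 0.1). On day 2 against day 0, 0 of the 17 passed in limma, and the median was -0.03. The largest day 2 changes were Slc7a7 at -1.40, Slc6a9, a glycine carrier, at -0.97, Slc6a15, a carrier of branched amino acids and proline, at 0.69 and Slc43a1 at 0.51 (limma, adjusted p of 0.193, 0.28, 0.268 and 0.328). The authors' deposited table of 698 probes lists 0 probes of the 10 members, and it gives Slc1a1 a log2 fold of 4.07 on day 5, with an unadjusted p of 0.018 in the authors' deposited table. Neither tested Slc1a1 probe was detected on day 0, so a fold against day 0 depends on values near background. The authors' fold is thus not comparable with the lower bounds given here for Slc1a1. The authors' deposited table also lists 1 Slc7a7 probe, with a log2 fold of -1.15 on day 5 and -1.77 on day 2 (unadjusted p = 0.043 and 0.031, as the authors give them), a smaller change on day 5 than on day 2. That table uses other probe numbers, and the entry was not matched to a probe here. Both Slc7a7 probes tested here had the larger change on day 5, also on the deposited series values, so the entry appears to be of another probe.

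**Figure D4:**
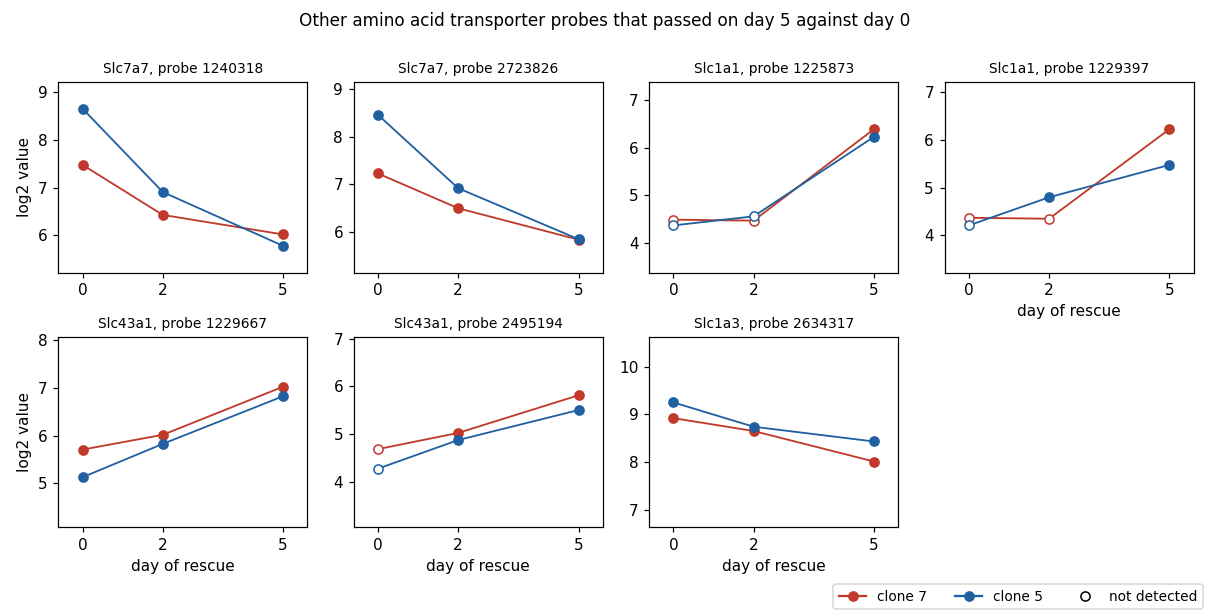
Log2 values of the 7 probes of other amino acid transporters that passed on day 5 against day 0 (1 panel each), on days 0, 2 and 5 for clone 7 and clone 5, with open points where a probe was not detected. Slc1a1 and Slc43a1 are highest on day 5 and Slc7a7 and Slc1a3 lowest.

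The ATF4 and amino acid response list had 34 tested probes of 22 genes. On day 5, 6 of the 34 passed (17.6%, beside the 3.66% of all probes), and the list's median was -0.06. Vldlr, a lipoprotein receptor, rose by 1.25 to 1.33 on its 3 probes (limma, adjusted p of 0.0204 to 0.0361), and Ddit3, a stress-induced transcription factor, rose by 0.82 on 1 of its 2 probes (limma, adjusted p = 0.0422 for Ddit3) and differed by 0.15 on the other. Cth, which makes cysteine from cystathionine, fell by 1.45 ± 0.17 (limma, adjusted p = 0.00907). Its log2 values were 8.38 in clone 7 and 7.88 in clone 5 on day 0, 7.47 and 7.08 on day 2, and 6.95 and 6.41 on day 5. Trib3, a pseudokinase induced with amino acid shortage, fell by 0.92 on 1 probe (limma, adjusted p = 0.0485), with -0.58 and -0.71 on its other probes. Without the clone block 3 of the 34 passed, and Ddit3, Trib3 and Vldlr probe ILMN_2515601 did not (limma, adjusted p of 0.154, 0.0724 and 0.117). On day 2, 0 of 34 passed in limma, 28 lay below 0 (82.4%), and the median was -0.33. The largest day 2 changes were Chac1, which breaks down glutathione, at -1.49, Aldh18a1, of proline synthesis, at -0.91, Phgdh, of serine synthesis, at -0.91 and 1 Trib3 probe at -0.87 (limma, adjusted p of 0.188, 0.249, 0.243 and 0.193). On day 5 against day 2, 4 of 34 passed (11.8%, beside the 0.693% of all probes), with Phgdh higher by 1.89 (limma, adjusted p = 0.0287) and the 3 Vldlr probes higher, and the median was 0.26. Phgdh on day 5 differed from day 0 by 0.98 (limma, adjusted p = 0.0846).

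The cytosolic aminoacyl-tRNA synthetases, which charge tRNAs with the transported amino acids, had 35 tested probes of 19 genes. None passed in limma on day 5 or day 2 (0 calls each), and the medians were -0.25 on day 5 and -0.26 on day 2, with 26 and 29 of the 35 below 0. Vars was at -0.80, -0.46 and -0.42 on its 3 probes on day 5 (limma, adjusted p of 0.103, 0.224 and 0.225). Eprs was at -0.63 and -0.25 on its 2 probes (limma, adjusted p = 0.0974 and 0.589). Of 17 probes for amino acid sensing by mTORC1, the kinase complex that reads amino acid supply, 0 passed in limma in either comparison, at medians of 0.11 on day 5 and 0.04 on day 2. Seh1l, a subunit of a GATOR complex, was at 0.65, 0.44 and 0.30 on its 3 probes on day 5. Cystine use and the NRF2 targets, the group around Slc7a11, had 19 tested probes of 9 genes, of which 2 passed on day 5 (10.5%, beside the 3.66% of all probes), both of Srxn1. Srxn1, which repairs oxidised peroxiredoxins, fell on 2 probes, with changes of -1.13 and -1.07 (limma, adjusted p = 0.0263 and 0.0357) and -0.70 on another probe that did not pass (limma, adjusted p = 0.0728). The list's median was -0.31. Nqo1, a quinone reductase, differed by -1.21 on day 5 (limma, adjusted p = 0.0794).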

How the data were processed

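The authors deposited the average bead signal of 45281 probes on 6 arrays as an intensity, neither normalised nor background corrected per the file headers, with a detection p-value per probe. The series values deposited by them are log2 values, and their deposited table of 698 probes gives log2 fold changes and unadjusted p-values. The software behind them is not stated in the sources used, and 9 per-array and day-average columns of that table were not used.

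Signals were corrected with limma 3.58.1 in R 4.3.3 (normexp from detection p-values, offset 16), log2 transformed and then quantile normalised. Probes that both arrays of any day detected (p under 0.05) were fitted with day and clone (2 residual and 5.54 prior degrees of freedom), and Benjamini-Hochberg adjusted over 17471 probes at 0.05. Clone entered as a block because each clone is the same line on all days. Clone differences correlated at 0.35 between days 0 and 2, -0.07 between days 0 and 5 and 0.33 between days 2 and 5. The 6 arrays limit the precision. A fold against undetected arrays is a lower bound, taken from the lowest detected values. The procedure was run on simulated log2 values with independent errors and no clone effect. That run cannot speak to disagreement between the clones or to signals near background. Alternatives changed the block, background, scaling, filter, probe choice, shrinkage and threshold, or left out 1 array.

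The members and lists were chosen with earlier results of these data known. Named genes are all members, list members that passed or had up to 4 largest changes, and the 6 probes most correlated with Slc38a5 (SD of at least 0.5).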

Additional observations from a re-analysis of the deposited data

Results flagged for a closer look

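In 12 cases a transporter probe was higher in one clone and lower in the other between the same days, with 1 array per clone and day, and the difference between the clones was not tested. Values are the log2 change of clone 7 minus that of clone 5. Against day 0, day 5 gave -1.27 for Slc38a2 probe ILMN_2955671 (-1.20 in clone 7 and 0.07 in clone 5) and -0.89 for Slc38a2 probe ILMN_1244123 (-0.60 and 0.29). It gave -0.74 for Slc1a4 (-0.58 and 0.16), -0.51 for Slc7a3 probe ILMN_1212906 (-0.34 and 0.17) and -0.48 for Slc1a5 probe ILMN_1252970 (-0.38 and 0.11). In these 5 cases clone 7 was the one below 0.

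Day 2 against day 0 gave -0.76 for Slc38a2 probe ILMN_1244123 (-0.74 in clone 7 and 0.02 in clone 5) and -0.58 for Slc7a3 probe ILMN_1212906 (-0.20 and 0.38). Sesn1, a stress-induced protein that senses leucine and is no member, gave 0.81 (0.04 and -0.77). Day 5 against day 2 gave 1.12 for Slc38a5 (1.02 in clone 7 and -0.10 in clone 5) and -0.78 for Slc38a2 probe ILMN_2955671 (-0.44 and 0.34). Smaller differences between days 5 and 2 were 0.29 for Slc7a3 probe ILMN_1257987, -0.23 for Slc1a5 probe ILMN_2593148 and -0.25 for Slc1a5 probe ILMN_2776585.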

How the results depend on the processing

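Of 498 values of single probes under an alternative, 468 kept their direction and their side of the threshold, 18 changed sign, 6 gained a call and 6, all of Slc38a5 on day 5, lost it. Alternatives that altered only the block, filter, probe choice, shrinkage or threshold kept the direction by construction. So did leaving out an array of the day outside a comparison. Either array of that day gives the same fit, so a call gained there is counted for each. For day 5 against day 0, the 1 transporter call became 0 without the replicate block, without background correction, with an offset of 50, with the series values, with no detection filter and with detection p under 0.01 on all 6 arrays, where Slc38a5 was not tested. The count over all probes, 639, became 276 without the replicate block, 129 without background correction, 347 with an offset of 50, 0 with the series values (limma, with 2883 at an unadjusted p below 0.05), 0 with no detection filter (5434 likewise), 358 with the strict filter and 1264 at a threshold of 0.1. On the series values Slc38a5 changed by -1.96 (limma, adjusted p = 0.213), and with no filter its adjusted p was 0.214. For day 2 against day 0, the count of 0 became 3 with the strict filter, with trended and robust shrinkage or at 0.1. For day 5 against day 2, 121 became 17 without the block, 2 without background correction, 2 with an offset of 50, 0 with the series values, 0 with no filter, 43 with the strict filter, 291 with trended and robust shrinkage and 478 at 0.1. The count of 7 other transporters became 2 without background correction, 0 with the series values, 0 with no filter, 4 with the strict filter and 4 with 1 probe per gene. The count of 6 in the ATF4 list became 3 without the block, 1 without background correction, 0 with the series values and 0 with no filter. These list counts were added after the data were seen.

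Leaving out 1 array left 1 transporter call on day 5 against day 0 each time (Slc7a3 in place of Slc38a5 without the clone 5 array of day 0), and gave 0 to 1 on day 2 against day 0, on day 5 against day 2 and between clones. It gave 253 to 908 calls over all probes on day 5 against day 0, 0 to 54 on day 2 against day 0 and 0 to 716 on day 5 against day 2. The other transporters gave 4 to 6, the ATF4 list 1 to 6, and the transporter median ranged from -0.56 to -0.07 on day 5 against day 0, -0.77 to -0.34 on day 2 against day 0 and -0.05 to 0.32 on day 5 against day 2. A day left with 1 array is assumed to vary like the others. For Slc38a5, leaving out either day 5 array gave the same fit of day 2 against day 0, with the estimate unmoved. All 18 changes of sign came from leaving out an array. For day 5 against day 0 the ranges were -0.73 to 0.31 for Slc1a4, -0.37 to 0.10 for Slc1a5 probe ILMN_1252970, -0.56 to 0.26 for Slc38a2 probe ILMN_1244123, -0.19 to 0 for Slc3a2 and -0.36 to 0.19 for Slc7a3 probe ILMN_1212906. For day 2 against day 0 they were -0.77 to 0.05 for Slc38a2 probe ILMN_1244123 and -0.18 to 0.36 for Slc7a3 probe ILMN_1212906. For day 5 against day 2 they were -0.14 to 0.21 and -0.08 to 0.32 for Slc1a5 probes ILMN_2593148 and ILMN_2776585, -0.56 to 0.46 and -0.05 to 0.46 for Slc38a2 probes ILMN_2955671 and ILMN_1244123, -0.10 to 1.03 for Slc38a5 and -0.35 to 0.24 for Slc7a3 probe ILMN_1257987. The causes were not tested. Signals near background limit Slc38a1, Slc3a2, the dim Slc7a3 probe and the day 2 value of Slc38a5 in clone 7.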
